A study of Mus musculus with 29 samples.

Results

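The 7 liver adenomas of this series, taken at 10 months of age from male mice, were set beside each other to see where they differed. An adenoma is a benign tumour of hepatocytes, the main cells of the liver. All 7 carry the label TBT: the dams had drunk water with tributyltin, an organotin compound, through gestation and lactation. The livers of the same age served only to show how far non-tumour samples spread, 5 of them labelled TBT and 6 labelled VEH, and no difference in mean level between adenoma and liver is given. The series holds 29 RNA-seq libraries in all. The labels do not say which adenoma came from which animal, and no tumour number is shared with a TBT liver, so tumour and host liver cannot be paired. Whether the libraries stem from as many animals is not stated either, so each p-value speaks only of spread among the samples at hand, which may be technical. No VEH adenoma was analysed here, and nothing below separates the exposure from the tumour.

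Of 22028 genes in the deposited count table, 13474 passed the filter on low counts, and 9667 of these averaged at least 5 CPM in the adenomas. CPM are read counts relative to the library total, scaled between libraries by TMM. The 9667 genes are the ones described. Of these, 119 had a median under 5 CPM and passed only through their high tumours, among them A1bg, Axin2, Bambi, Cyp2b10, Fmr1nb, Hkdc1, Hsd3b5, Inhbb, Ms4a7, Tm4sf20 and Ttn. Such genes were bound to vary, and their values are a description. The gene just inside this bound was Naif1, with a mean of 5.00 CPM and an SD of 0.21 on the log2 scale, and the gene just outside was Manbal, with 4.999 CPM and an SD of 0.13. The adenoma libraries held 21920649 to 27563960 counted reads, against 25973945 to 32850438 in TBT livers and 25714194 to 30362835 in VEH livers. Mitochondrially encoded genes took 1.21% to 1.63% of the adenoma counts, against 1.34% to 1.42% in TBT livers and 1.29% to 1.81% in VEH livers. No pair of libraries within a group was identical. All 10 listed hepatocyte markers averaged at least 5 CPM in the adenomas, with albumin (Alb) at 39000 to 85700 CPM. In bulk tissue, fewer cells of a type and less RNA per cell cannot be told apart.

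Hepatocytes differ along the liver lobule. Those beside the central vein receive Wnt signals, which stabilise β-catenin, and with its DNA-binding partners of the TCF/LEF family β-catenin switches on genes such as Glul, which encodes glutamine synthetase, and Axin2, a feedback inhibitor of the pathway. Mouse liver adenomas are known for activating mutations either in this pathway or in the RAS and MAP kinase pathway. A second axis is sex: the pulsed growth hormone of male mice keeps genes such as the major urinary protein Mup7 high in male liver.

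Most genes spread more between adenomas than within a liver group. The median SD of log2 CPM was 0.23 over the adenomas and 0.16 within the liver groups, and the median ratio of the SDs was 1.48. The ratio was above 1 for 80.4% of the 9667 genes and above 2 for 25.1%. A fold range of at least 4 between the highest and lowest library was seen for 451 genes in the adenomas and for 260 in the livers, and of at least 10 for 144 genes in the adenomas and 59 in the livers. The common biological coefficient of variation of edgeR was 24.3% for the adenomas and 15.3% for the livers.

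The spread was tested gene by gene with limma on the size of each library's deviation from its own group mean, 7 adenomas against 11 livers, two-sided, with Benjamini-Hochberg adjustment. Over all 13474 genes, 6.61% had larger and 0.0816% had smaller spread in the adenomas at an adjusted p under 0.05. Among the 9667 genes described, 760 had larger spread (7.86%) and 6 smaller. Where the median, not the mean, had to reach 5 CPM, 742 of 9595 genes had larger spread, 738 of them among the 760. At an unadjusted p under 0.05 the counts were 2477 and 75. The calls depend on the reference: against the 6 VEH livers alone or the 5 TBT livers alone none of the genes passed in limma, while 1670 and 1399 had larger spread at an unadjusted p under 0.05. Leaving out single libraries gave 498 genes with larger spread without VEH liver 1 and 1262 without adenoma 5, and 3 with smaller spread without adenoma 1, adenoma 11 or VEH liver 5. With deviations taken from the median 7 genes had larger spread, and of the genes whose adjusted p is printed below only Lect2 and Mup3 kept their call there. Every call is lost against either arm alone. On simulated counts the test made more false calls than the nominal share. The counts and shares of called genes are therefore approximate, as is a single call near the threshold. The mean size of the deviation was larger in the adenomas for 80.3% of the genes, and for 71.2% to 82.6% under the alternatives.

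**Figure D1:**
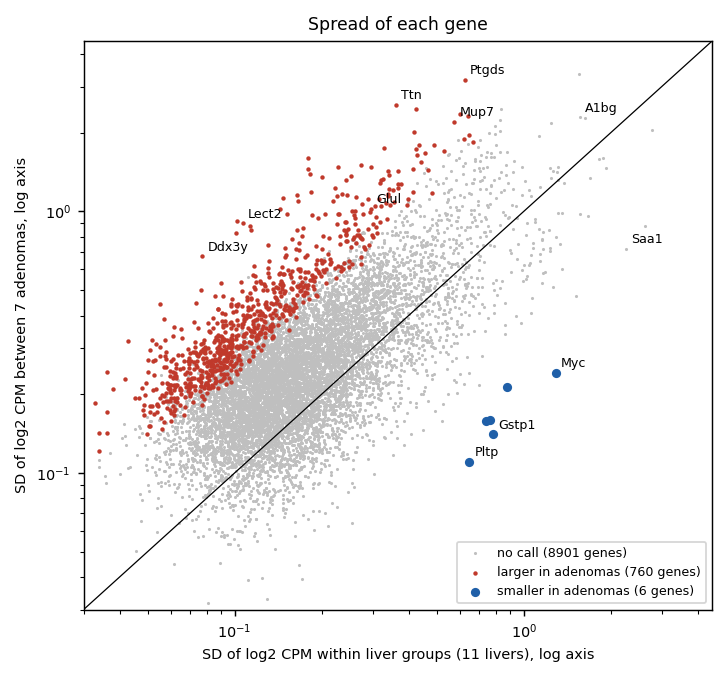
Each point is 1 of the 9667 genes: the vertical axis is the SD of log2 CPM over the 7 adenomas and the horizontal axis the SD within the liver groups, both on log axes, with the diagonal marking equal spread. Of the genes 80.4% lie above the diagonal, with 760 genes called larger (red) and 6 called smaller (blue).

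β-catenin target genes differed widely and together. Glul was at 1730 CPM in adenoma 6 and 774 in adenoma 7, and at 262, 242, 344, 294 and 454 CPM in adenomas 1, 3, 5, 11 and 12, while the 11 livers ran from 817 to 1440 CPM. Adenoma 6 was the highest and adenoma 3 the lowest, 7.15-fold apart, against 1.77-fold between the extreme livers. The mean size of the deviation was larger in the adenomas by 0.55 on the log2 scale (SE 0.18, limma adjusted p = 0.0445). This call held in 14 of 30 alternatives: it was lost without adenoma 6 or 7, and without each liver in turn other than TBT liver 8.

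Lect2, a secreted hepatocyte protein known as a β-catenin target, was at 169 CPM in adenoma 6, 72.1 in adenoma 3 and 69.4 in adenoma 7, and between 26.1 and 44.2 CPM in adenomas 1, 5, 11 and 12. The livers were between 104 and 139 CPM, so the 6.47-fold range of the tumours stood beside 1.33-fold in liver (difference in deviation 0.66, SE 0.13, limma adjusted p = 0.00066). Slc1a2, a glutamate transporter of pericentral hepatocytes, reached 253 CPM in adenoma 6 and 223 in adenoma 7, against 17.0 CPM in adenoma 11 and 31.2 to 60.3 in adenomas 1, 3, 5 and 12 (14.8-fold range, 2.18-fold in livers, limma adjusted p = 0.0092). Rnf43, a ubiquitin ligase that dampens Wnt receptors, was at 32.1, 34.3 and 20.9 CPM in adenomas 6, 7 and 3, and at 4.31 to 7.84 CPM in adenomas 1, 5, 11 and 12 (limma adjusted p = 0.00787). Axin2 followed the same order at the ends, with 23.5 CPM in adenoma 6 and 2.05 in adenoma 11, but its call was not made (limma adjusted p = 0.0725).

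Of the 18 genes listed as β-catenin targets, 10 averaged at least 5 CPM in the adenomas. Of these 7 had larger spread, beside 7.86% of all genes described, and none smaller. Their median SD ratio was 3.33 against 1.48 over all genes described, and their median pairwise correlation over the 7 tumours was 0.89 against 0.00 over all. All 10 lay above the tumours' median in adenoma 6, with a mean deviation of 1.67 on the log2 scale, and all 10 below it in adenoma 11, with -0.97. In adenoma 7, 9 of 10 lay above (mean 1.25), and in adenoma 3, 8 of 10 (mean 0.58). The bound of 5 CPM is on the mean over these same 7 tumours and favours genes with a few high tumours. Axin2, with a median of 4.89 CPM, passed it only in this way. The counts, means and correlation of the list are therefore a description. Lgr5, the best known Wnt target of stem cells, was under 5 CPM on average and is not described.

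The promoters of Lect2 and Slc1a2 are shown because both hold a core of the TCF/LEF site (CTTTGAT or CTTTGAA, searched on both strands), here as its reverse complement in capitals. The stretches are 120 bases from RefSeq promoters of build GRCm38.p6, 5′ to 3′ on the gene's strand, at chr13:56548508-56548627 (minus strand) for Lect2 and chr2:102706188-102706307 (plus strand) for Slc1a2. Such a core was in a 300-base promoter of 3 of the 7 listed members that matched the promoter table. It was in 8.65% of all 32851 promoters. A member was counted if any of its promoters matched, while the percentage counts single promoters, so the values are not directly comparable. A match is a run of letters and not evidence of binding. The start that RefSeq gives for Slc1a2 lies inside the span of the gene in the GENCODE annotation, chr2:102658659-102790784, so the stretch shown is not upstream of the first annotated start.
Lect2: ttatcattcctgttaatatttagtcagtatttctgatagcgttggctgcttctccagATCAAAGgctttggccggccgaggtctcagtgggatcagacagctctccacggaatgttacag
Slc1a2: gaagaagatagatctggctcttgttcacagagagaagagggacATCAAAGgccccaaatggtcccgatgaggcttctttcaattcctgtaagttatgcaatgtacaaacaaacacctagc

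The wider pericentral programme varied along with these targets. Of 14 listed pericentral genes described, 8 had larger spread, beside 7.86% of all genes described, and none smaller. Their median SD ratio was 3.44 and their median pairwise correlation 0.70. Some genes stand on both lists. Cyp2e1, the ethanol-oxidising cytochrome P450, was at 5650 CPM in adenoma 7, 4020 in adenoma 6, 1640 in adenoma 12, 1630 in adenoma 5, 1300 in adenoma 3, 1020 in adenoma 1 and 603 in adenoma 11, beside 5460 to 10400 CPM in the livers (limma adjusted p = 0.0259, lost without adenoma 6, adenoma 7 or VEH liver 5). Rgn, the calcium-binding regucalcin, ran from 208 CPM in adenoma 11 to 1330 in adenoma 6, and Gulo, of vitamin C synthesis, from 180 CPM in adenoma 11 to 822 in adenoma 6 (limma adjusted p = 0.00296 for Rgn and 0.00437 for Gulo). Adenoma 11 was thus the lowest and adenoma 6 or 7 the highest for each of these 3 genes. Of 15 periportal genes 1 had larger spread, beside 7.86% of all genes described. It was Hsd17b13, a lipid droplet protein, at 1280 CPM in adenoma 11 and 357 in adenoma 6 (limma adjusted p = 0.04, held in 15 of 30 alternatives, lost without adenoma 6 or 11 and without TBT livers 4, 8 or 9 or VEH livers 1, 4, 5, 6 or 7). Cyp2f2, the periportal cytochrome, ran from 340 CPM in adenoma 6 to 1170 in adenoma 1 without a call (limma adjusted p = 0.053).

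**Figure D2:**
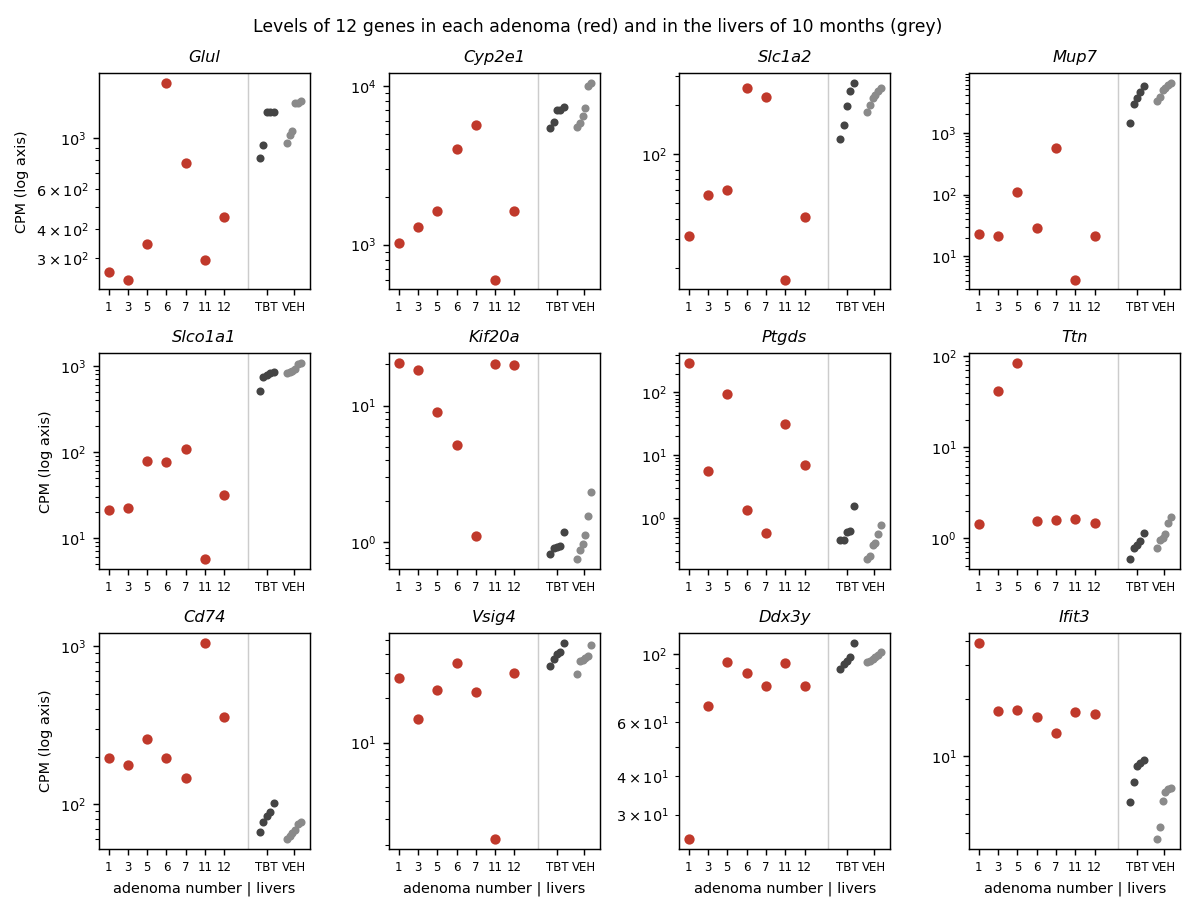
CPM on log axes of 12 genes in each of the 7 adenomas (red, by tumour number) and in the TBT and VEH livers of 10 months (dark and light grey, in order of value within a group). Glul, Cyp2e1 and Slc1a2 are highest in adenomas 6 and 7, Mup7 runs over a 131-fold range, Ttn is at 41.7 and 84.7 CPM in adenomas 3 and 5 and below 2 CPM in the other 5, and Ddx3y and Ifit3 each have adenoma 1 alone at 1 end.

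Mup7 was highest in adenoma 7 and lowest in adenoma 11. It was at 565 CPM in adenoma 7, 110 in adenoma 5, 29.4 in adenoma 6, 23.4 in adenoma 1, 21.7 in adenoma 3, 21.5 in adenoma 12 and 4.24 in adenoma 11. Adenoma 7 and adenoma 11 lay 131-fold apart, while the 11 livers, from 1440 to 6350 CPM, covered a 4.39-fold range (difference in deviation 1.26, SE 0.38, limma adjusted p = 0.0259, lost with variance-stabilised counts and without adenoma 7, TBT liver 9, VEH liver 1 or VEH liver 7). The Mup genes are near-identical copies that share reads, so the value of any 1 of them is uncertain.

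Over the 7 tumours Glul and Mup7 were correlated with Pearson's r = 0.362 (exact permutation p = 0.406 over 5040 pairings, two-sided) and Spearman's rho = 0.464 (exact permutation p = 0.302). Without adenomas 6 and 7, farthest from the median of Glul, r was 0.208. It was the only one of 3 planned marker pairs that could be tested, so the adjusted p-values are the same. A1bg, which encodes a plasma glycoprotein, was at 18.2 and 19.3 CPM in adenomas 6 and 7 and between 0.439 and 0.885 CPM in adenomas 1, 3, 5, 11 and 12, and these separate clusters leave no pooled test with it. Its own spread was not called larger (limma adjusted p = 0.683), since the livers ran from 0.0409 to 4.21 CPM.

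Other male-biased genes of liver shared the ends of the Mup7 order. Mup3 was at 1900 CPM in adenoma 7, 916 in adenoma 6 and 761 in adenoma 5, and at 656, 379, 255 and 98.2 CPM in adenomas 1, 12, 3 and 11, beside 5600 to 10500 CPM in the livers (limma adjusted p = 0.00066). Slco1a1, an organic anion carrier, ran from 5.63 CPM in adenoma 11 to 109 in adenoma 7, and the livers from 515 to 1080 CPM (limma adjusted p = 0.0013). Hsd3b5, a steroid dehydrogenase of male liver, ran from 0.398 CPM in adenoma 11 to 14.9 in adenoma 7 (limma adjusted p = 0.0386, held in 14 of 30 alternatives, lost with variance-stabilised counts and without adenoma 11, TBT livers 4, 8 or 9 or any 1 of the VEH livers). Its median was 3.08 CPM, so it passed the bound of 5 CPM only through its high tumours and its call is a description. In all, 5 of 18 male-biased genes described had larger spread, beside 7.86% of all genes described, and 1 smaller. Their median SD ratio was 1.27, below the 1.48 of all genes. None of 10 female-biased genes was called in limma at an adjusted p under 0.05. As a list they had the same ends as the male-biased genes, with a mean of 0.62 in adenoma 7 (7 of 10 above the tumours' median) and -0.62 in adenoma 11 (8 of 10 below), beside 0.91 and -1.14 for the male-biased list. Cyp2a4, a female-biased steroid hydroxylase, went against its list and ran from 33.3 CPM in adenoma 7 to 666 in adenoma 1 (limma adjusted p = 0.144).

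Of 16 genes of bile acid synthesis and transport described, 4 had larger and 1 smaller spread. That share of larger spread was above the 7.86% of all genes described. The median SD ratio of the list was 1.345, below the 1.48 over all. Slc10a1, the sodium-dependent importer of bile acids, was at 426 CPM in adenoma 7, 264 in adenoma 6, 200 in adenoma 5, 142 in adenoma 1, 137 in adenoma 3, 117 in adenoma 12 and 33.1 in adenoma 11, and the livers lay between 613 and 846 CPM (limma adjusted p = 0.00729, lost with no filter on low counts and without adenoma 6). Slco1b2, a hepatic anion importer, ran from 442 CPM in adenoma 11 to 1230 in adenoma 6 (limma adjusted p = 0.00271). The exporter Abcc4 ran from 9.72 CPM in adenoma 3 to 64.2 in adenoma 11 (limma adjusted p = 0.00164). Among 13 genes of the nuclear receptors CAR and PXR, which respond to foreign compounds, 3 had larger spread, beside 7.86% of all genes described. These were Cyp2c29, Cyp2c37 and Cyp2b10, and the median SD ratio over the list was 2.26. Cyp2b10, the marker gene of CAR, was at 26.8 CPM in adenoma 1, 8.69 in adenoma 3 and 5.77 in adenoma 12. It was between 0.665 and 2.38 CPM in adenomas 5, 6, 7 and 11, and at 0 to 0.206 CPM in the livers. Its median was thus 2.38 CPM, and it passed the bound of 5 CPM only through its high tumours. The Cyp2b10 call held in 13 of 29 alternatives. It was lost at a prior count of 0.5 and without adenoma 1, 7 or 11, TBT livers 2 or 9 or VEH livers 1, 2, 5, 6 or 7.

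The first principal component of the 9667 genes held 50.6% of the variance between adenomas, of 6 components that 7 libraries allow. Adenoma 7 stood at a score of 46.3 and adenoma 11 at -34.2, with adenoma 6 at 18.2, adenoma 3 at 3.21, adenoma 5 at -3.38, adenoma 1 at -12.9 and adenoma 12 at -17.2. The mitochondrial share of counts had the same ends, 1.63% in adenoma 7 and 1.21% in adenoma 11, and all 11 mitochondrially encoded genes described lay above the tumours' median in adenoma 7 (mean 0.57) and below it in adenoma 11 (mean -0.57). Its part in the component was not tested. The leading genes of the component at the end of adenoma 7 were Mup7, Mup11, Mup14, Hsd3b5, Cyp2c54 and A1bg, and at the end of adenoma 11 Ptgds, Spink1, Styk1, Timp4, Orm3 and Tm4sf20. Of these, Hsd3b5, A1bg and Tm4sf20 had a median under 5 CPM and were bound to vary. The root mean square distance between pairs of adenomas was 0.354 to 0.837 log2 units, against 0.289 to 0.425 between TBT livers and 0.275 to 0.425 between VEH livers. Adenoma 7 was the highest of the 7 for 21.3% of genes and the lowest for 21.7%, and adenoma 11 for 19.5% and 22.7%. Among the 760 genes called with larger spread, adenoma 7 was the highest for 183 and the lowest for 239, and adenoma 11 the highest for 217 and the lowest for 230. Without both of these tumours together, an alternative chosen after the data were seen, 415 genes had larger spread.

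**Figure D3:**
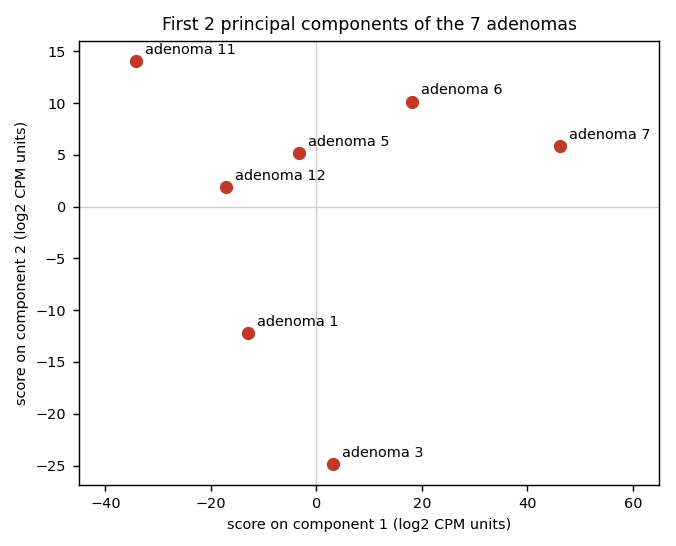
Scores of the 7 adenomas on the first 2 principal components of log2 CPM over 9667 genes, in log2 CPM units. Adenomas 7 and 11 lie at opposite ends of component 1, which holds 50.6% of the variance, and component 2 holds 13.9%.

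Several of the most variable genes were patchy among the tumours. Ptgds, a prostaglandin D synthase and lipid carrier, was at 295 CPM in adenoma 1, 94.7 in adenoma 5, 31.0 in adenoma 11, 6.92 in adenoma 12, 5.6 in adenoma 3, 1.32 in adenoma 6 and 0.577 in adenoma 7, a 454-fold range, while the livers were between 0.219 and 1.54 CPM (limma adjusted p = 0.0251, lost without TBT liver 2, VEH liver 1 or VEH liver 2). Ttn, the giant protein of muscle sarcomeres, was at 84.7 CPM in adenoma 5 and 41.7 in adenoma 3, and between 1.44 and 1.62 CPM in the other 5, which lie inside the liver range of 0.584 to 1.70 CPM, so its median was 1.596 CPM. Timp4, an inhibitor of matrix metalloproteinases, was at 37.1 CPM in adenoma 11, 16.1 in adenoma 1, 5.52 in adenoma 3 and 5.16 in adenoma 5, and under 1 CPM in adenomas 6, 7 and 12 (limma adjusted p = 0.00472, lost at a prior count of 0.5, the livers being at 0 to 0.105 CPM). Each of these genes picks out other tumours: Ptgds adenomas 1 and 5, Ttn adenomas 5 and 3, and Timp4 adenomas 11 and 1.

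Hkdc1, a hexokinase-like enzyme, was at 34.5, 34.2 and 18.5 CPM in adenomas 5, 11 and 12 and at most 4.89 CPM in the rest. Tmprss4, a membrane serine protease, reached 34.5, 25.0 and 21.4 CPM in adenomas 12, 11 and 3, and 1.06 CPM in adenoma 7 (limma adjusted p = 0.0122). Fmr1nb, a gene of testis, was at 53 CPM in adenoma 11 and 5.49 in adenoma 5 and at most 0.222 CPM in the other 5, without a call (limma adjusted p = 0.502), the livers reaching 2.03 CPM.

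Proliferation genes set adenoma 7 apart. Mki67, the classic proliferation marker, was at 5.68 CPM in adenoma 7, and at 58.7, 76.9, 31.9, 27.9, 43.5 and 45.4 CPM in adenomas 1, 3, 5, 6, 11 and 12. The livers ranged over 5.51-fold themselves, from 1.27 to 7.34 CPM, and the spread was not called larger (limma adjusted p = 0.478). Kif20a, a kinesin of cell division, was at 1.11 CPM in adenoma 7, 5.15 in adenoma 6, 8.98 in adenoma 5 and 18.2 to 20.5 CPM in adenomas 1, 3, 11 and 12 (livers 0.747 to 2.31 CPM, limma adjusted p = 0.0161, lost without adenoma 7). All 23 cell cycle genes described were below the tumours' median in adenoma 7, with a mean deviation of -2.51 on the log2 scale, and 21 of 23 were below it in adenoma 6, with -0.64. Their median pairwise correlation was 0.89 and their median SD ratio 2.04, and 4 had larger spread, beside 7.86% of all genes described. These 4 were Kif20a, the replication genes Mcm6 and Pcna, and Tyms, of thymidylate synthesis, each call being lost without adenoma 7. The Pcna call was also lost without adenoma 6, TBT livers 4, 8, 9 or 10 or VEH livers 2, 4 or 5, and the Mcm6 call without TBT livers 2, 8 or 10 or VEH livers 2, 5 or 6. In Mki67 the difference in deviation was 0.32, and -0.13 without adenoma 7. The hepatocyte marker list was highest in the same tumour, at 0.44 above the median on the log2 scale (livers -0.24 to 0.22). The TMM factor of adenoma 7 was 0.99, beside 1.13 to 1.21 in the other adenomas and 0.832 to 0.986 in the livers. The part of either in this and the other results on adenoma 7 was not tested.

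The promoters of Mki67 and of Top2a, chosen for its promoter as the gene of the DNA topoisomerase of dividing cells, show the short core (TTTGAA, both strands, in capitals) of the cell cycle homology region, an element through which dividing cells control such genes. They come from RefSeq, build GRCm38.p6, at chr7:135716433-135716552 and chr11:99024306-99024425, both on the minus strand and written 5′ to 3′ along it. The core was in a promoter of 10 of the 20 listed members that matched the table and in 17.9% of all 32851 promoters. Members were again counted by any of their promoters and the percentage by single promoters, so these are not directly comparable.
Mki67: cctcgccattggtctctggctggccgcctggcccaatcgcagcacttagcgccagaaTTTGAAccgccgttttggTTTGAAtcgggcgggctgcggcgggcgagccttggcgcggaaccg
Top2a: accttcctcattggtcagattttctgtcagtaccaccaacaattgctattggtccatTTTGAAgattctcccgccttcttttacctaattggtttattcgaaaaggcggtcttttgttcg

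Genes of fetal liver and liver tumours were also low in adenoma 7. Of 15 such genes described 5 had larger spread, beside 7.86% of all genes described. Of the 15, 14 lay below the median in adenoma 7 (mean -1.75) and 12 above it in adenoma 11 (mean 0.73). Golm1, a Golgi membrane protein, was at 61.5 CPM in adenoma 11, 43.0 in adenoma 12 and 5.45 in adenoma 7 (limma adjusted p = 0.00944). Afp, the fetal albumin counterpart, did not share that order: it was at 26.7 CPM in adenoma 12, 14.0 in adenoma 5 and 9.24 in adenoma 6, and between 3.69 and 5.30 CPM in adenomas 1, 3, 7 and 11, beside 1.75 to 2.90 CPM in the livers (limma adjusted p = 0.00296). Ly6d, a surface protein, was at 17.6 CPM in adenoma 7 and between 113 and 453 CPM in the others, without a call (limma adjusted p = 0.154).

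Targets of NRF2, the regulator of the response to oxidants, were lowest in adenoma 7 too, where 22 of 24 lay below the median with a mean deviation of -1.20. Srxn1, which repairs oxidised peroxiredoxins, was at 270, 253, 235 and 189 CPM in adenomas 5, 1, 11 and 6 and at 112, 97.7 and 67.1 CPM in adenomas 3, 12 and 7, while the livers ran from 34.6 to 51.0 CPM (limma adjusted p = 0.00172). Txnrd1, a thioredoxin reductase, covered only 1.74-fold in the tumours, from 170 to 295 CPM, but 1.15-fold in the livers (limma adjusted p = 0.00124). In all 4 of the 24 had larger spread, beside 7.86% of all genes described. Slc7a11, the cystine importer, ran from 2.08 CPM in adenoma 7 to 126 in adenoma 5 without a call (limma adjusted p = 0.23).

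**Figure D4:**
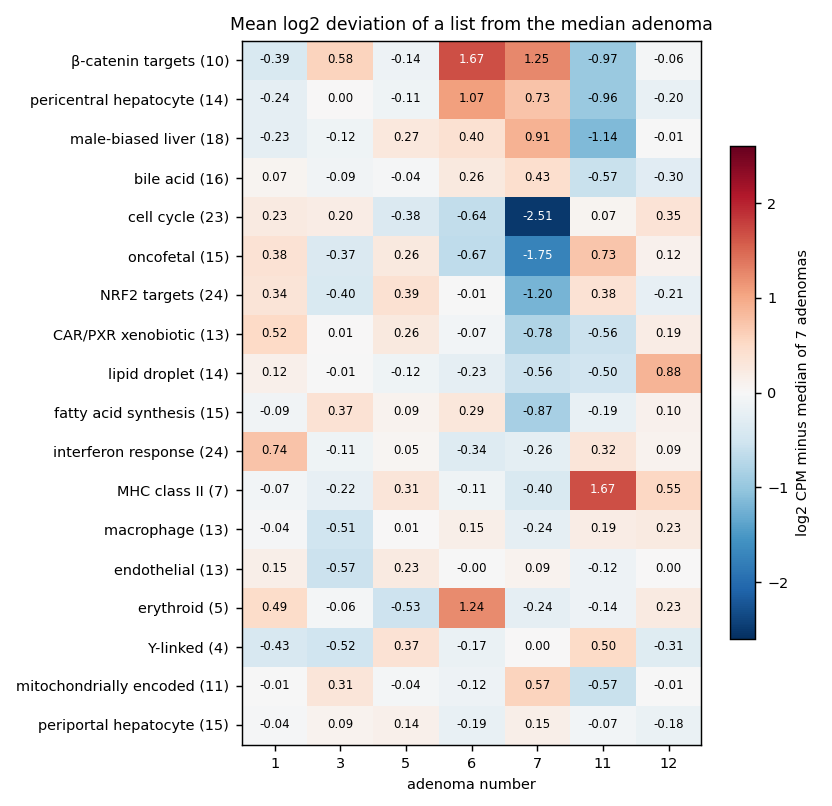
Mean deviation of each gene list from the median of the 7 adenomas, on the log2 CPM scale, with tumours across and lists down (number of genes in brackets). Adenomas 6 and 7 are highest for β-catenin targets (1.67 and 1.25), adenoma 7 lowest for cell cycle genes (-2.51) and adenoma 11 highest for MHC class II genes (1.67).

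Lipid genes did not spread more between adenomas than between livers as a group. The median SD ratio was 0.79 for 14 lipid droplet genes, 0.64 for 15 genes of fatty acid synthesis and 0.86 for 19 of cholesterol synthesis, against 1.48 over all genes. In these lists 1, 1 and 0 genes were called larger in limma, beside 7.86% of all genes described. Fasn, the fatty acid synthase, ran from 374 CPM in adenoma 7 to 1810 in adenoma 3 and from 180 to 2960 CPM in the livers. The exception among the lipid droplet genes was Fabp4, a fatty acid carrier of fat cells, at 171 CPM in adenoma 12 against 10.4 to 37.4 CPM in the other 6 (limma adjusted p = 0.0349, held in 17 of 29 alternatives, lost with no filter and without adenoma 12, TBT livers 4, 8 or 9 or VEH livers 2, 4 or 7). The exception in fatty acid synthesis was Scd2, a stearoyl desaturase, at 14.7 CPM in adenoma 7 and 65 to 312 CPM in the rest (limma adjusted p = 0.0259, lost with no filter and without adenoma 7 or VEH liver 2).

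Genes with a single tumour apart from the other 6 were about as frequent as chance gives. By Dixon's ratio of the gap to the range, with a bound that chance passes in about 5% of groups of 7 values, 1 tumour stood alone above the others for 2.46% of the 9667 genes and alone below for 2.77%. They were not shared evenly: adenoma 7 was alone for 63 genes above and 121 below, adenoma 12 for 71 and 55, adenoma 11 for 40 and 40, adenoma 3 for 16 and 31, adenoma 6 for 27 and 7, adenoma 1 for 11 and 9 and adenoma 5 for 10 and 5.

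In adenoma 1 the genes that stood alone above included interferon-induced ones. Ifit3 was at 39.0 CPM there and between 13.3 and 17.4 CPM in the other 6, and Isg15, a ubiquitin-like protein, at 14.5 CPM against 5.78 to 7.86 CPM. Of 24 interferon response genes described, 23 lay above the median in adenoma 1 (mean 0.74), 22 below it in adenoma 6 (mean -0.34) and 19 below it in adenoma 7 (mean -0.26). A count of 2 of the 24, near the 7.86% over all genes described, had larger spread: Oasl1, a sensor-like protein induced by interferon, and Cxcl9, a chemokine, with limma adjusted p of 0.0344 and 0.0466. The Oasl1 call held in 17 of 30 alternatives and was lost with no filter, with the livers as 1 group and without adenoma 1, TBT livers 4 or 10 or VEH livers 2, 4, 5 or 6. The Cxcl9 call held in 10 of 30 and was lost at a prior count of 0.5, with the livers as 1 group and without adenomas 3, 6, 7 or 11, TBT livers 4, 8, 9 or 10 or VEH livers 1, 2, 4, 5 or 7. Cxcl9 was highest in adenoma 11, at 49.7 CPM, so its order differed from that of Ifit3.

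The promoters of Isg15 and Ifit3 are shown because both hold the core of the interferon-stimulated response element (GAAA, any 2 bases, GAAA, on both strands, overlapping matches joined), in capitals, which reads as its reverse complement in Ifit3. They are RefSeq sequences of build GRCm38.p6 at chr4:156200832-156200951 (minus strand) and chr19:34583318-34583437 (plus strand), 5′ to 3′ on the gene's strand. The core was in a promoter of 11 of the 19 listed members that matched the table and in 3.44% of all 32851 promoters. Here too any promoter of a member counted, while the percentage is per promoter, so these are not directly comparable.
Isg15: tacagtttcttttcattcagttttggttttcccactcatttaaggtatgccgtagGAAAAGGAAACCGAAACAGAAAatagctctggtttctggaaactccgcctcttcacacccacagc
Ifit3: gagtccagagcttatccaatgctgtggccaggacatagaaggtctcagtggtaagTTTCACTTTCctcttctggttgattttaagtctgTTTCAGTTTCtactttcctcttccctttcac

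Adenoma 11 stood alone by Dixon's ratio for some genes of antigen-presenting cells and tissue macrophages: Itgax and Ms4a7 above the others and Vsig4 below. Itgax, the integrin of dendritic cells, was at 28.9 CPM there against 8.37 to 12.5 CPM in the other 6, and Ms4a7, a macrophage membrane protein, at 16.0 against 3.10 to 6.13 CPM. The median of Ms4a7 was under the bound of 5 CPM, so it passed only through its high tumours and was bound to vary. Vsig4, a complement receptor of Kupffer cells, the resident macrophages of liver, was at 2.19 CPM in adenoma 11 and between 14.4 and 35.0 CPM in the other 6, beside 29.3 to 47.9 CPM in the livers (limma adjusted p = 0.00919, lost with no filter and without adenoma 11). Clec4f, a lectin of Kupffer cells, was lowest there as well, at 25.8 CPM, with 42.4 to 95.4 CPM in the others (limma adjusted p = 0.0137, lost without adenoma 11). Class II genes of the MHC, which present antigen, were all 7 above the median in adenoma 11 (mean 1.67) and in adenoma 12 (mean 0.55). Cd74, their invariant chain, was at 1050 CPM in adenoma 11, 356 in adenoma 12 and 147 to 259 CPM in the other 5 (limma adjusted p = 0.00607, lost without adenoma 11). The median correlation within this list was 0.97. Macrophage markers as a whole differed little in adenoma 11, at 0.19 on the log2 scale in a range of -0.51 to 0.23 (livers -0.29 to 0.21). Of 13 such markers 3 were called larger, beside 7.86% of all genes described: Vsig4, Clec4f and Spp1. Spp1, osteopontin, ran from 131 CPM in adenoma 7 to 774 in adenoma 11, and bile duct cells also make it. The part of these cells in other results on adenoma 11 was not tested.

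Adenoma 3 was low in markers of endothelium. Lyve1, of sinusoidal and lymphatic endothelium, was at 5.63 CPM there and 12.2 to 21.2 CPM in the others, and Pcdh12, an endothelial protocadherin, at 5.40 against 11.4 to 17.3 CPM. Of 13 endothelial markers 12 lay below the median in adenoma 3 (mean -0.57, livers -0.34 to 0.23), though no endothelial marker had a larger spread in limma at an adjusted p under 0.05. Of 13 macrophage markers 11 lay below the median there (mean -0.51). Their part in other results on adenoma 3 was not tested. Acmsd, an enzyme of tryptophan breakdown, was alone high in the same tumour, at 135 CPM against 55.9 to 79.6 CPM. None of 16 T and NK cell markers and none of 10 neutrophil markers reached a mean of 5 CPM.

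Further genes with 1 tumour apart were these. In adenoma 7, Mat1a, which makes S-adenosylmethionine in adult liver, was at 10800 CPM against 2510 to 4130 CPM, Mug1, a plasma protease inhibitor, at 7620 against 1350 to 2710 CPM, and the glucocorticoid-induced chaperone Fkbp5 at 95.1 against 15.7 to 32.5 CPM. In adenoma 6, Paox, a polyamine oxidase, was at 38 CPM against 14.1 to 20.2 CPM, and Egr1, an immediate early transcription factor, at 2.91 against 8.41 to 17.3 CPM. In adenoma 12, Inhbb, a subunit of activin B, was at 25.1 CPM against 2.66 to 6.86 CPM, Abhd6, a monoacylglycerol hydrolase, at 55.5 against 15.3 to 26 CPM, and Lars2, the mitochondrial leucyl-tRNA synthetase, at 12.5 against 43.1 to 76.6 CPM. Inhbb had a median under 5 CPM and was bound to vary. In adenoma 5, Kitl, the ligand of the Kit receptor, was at 9.75 CPM against 5.16 to 6.74 CPM.

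Genes of the Y chromosome, which these male mice carry, were uneven between tumours and not all low in the same ones. Ddx3y, an RNA helicase, was at 24.9 CPM in adenoma 1 and at 67.8, 94.4, 87.0, 79.0, 93.5 and 79.0 CPM in adenomas 3, 5, 6, 7, 11 and 12, while the 11 livers lay between 89.7 and 109 CPM (limma adjusted p = 0.0431, lost with no filter, at a prior count of 0.5 and without adenoma 1, TBT liver 9 or VEH liver 4). Eif2s3y, a subunit of a translation initiation factor, was lowest in adenoma 12, at 12.4 CPM, then in adenoma 3 at 20, adenoma 6 at 26.1, adenoma 7 at 30.6, adenoma 1 at 33.3, adenoma 5 at 47.0 and adenoma 11 at 52.0 CPM, with livers at 37.1 to 58.8 CPM (limma adjusted p = 0.00742). Kdm5d, a histone demethylase, ran from 9.48 CPM in adenoma 3 to 34.1 in adenoma 11 (livers 21.4 to 28.8 CPM, limma adjusted p = 0.0244, lost without adenoma 3). Uty, another demethylase-like gene, ran from 20 to 29.9 CPM without a call (limma adjusted p = 0.182). Each of the 3 called genes thus had another tumour as its lowest. Zfy1 and Usp9y did not pass the filter on low counts.

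Whole chromosomes also sat higher or lower in single tumours. For each tumour and chromosome, the median over genes of the log2 deviation from the tumours' median was taken, and 28 of 140 values lay beyond 0.1 in size, against 0 of 220 values for the livers, each taken from the median of its own arm. The largest liver value was 0.023. In a group of 5 or 7 libraries 1 value per gene is 0 by construction, which draws this measure to 0 in TBT livers and in adenomas. With deviations from the mean of the other libraries of the group, less the library's median over all genes, a measure chosen after the data were seen, 55 of 140 adenoma values and 0 of 220 liver values lay beyond 0.1, the largest liver value being 0.038. Adenoma 11 had 10 of the 28 values and adenoma 12 had 8, adenoma 7 had 3, adenomas 1, 5 and 6 had 2 each and adenoma 3 had 1.

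Chromosome 15 differed the most. Its 404 genes had a median deviation of 0.25 in adenoma 12 and 0.23 in adenoma 11, against -0.19 in adenoma 5 and -0.12 in adenomas 6 and 7. In adenoma 12, 322 of the 404 genes were above the tumours' median and 44 below, and in adenoma 5, 37 were above and 326 below. Of the genes of this chromosome 17.3% had larger spread, the highest share of the 20 chromosomes tested. On chromosome 12, 258 of 322 genes were below the median in adenoma 11 (-0.27), and on chromosome 19, 259 of 348 (-0.23). Chromosome X was low in adenoma 12, where 217 of 267 genes lay below (-0.22), and chromosomes 6 and 7 were high there (0.19 and 0.16). Chromosome 2 was low in adenoma 11 (-0.20) and chromosome 1 high (0.19). Of the chromosome 15 genes named above, Ly6d was highest in adenomas 12 and 11, and A1bg in adenomas 7 and 6. No DNA measurement was analysed here, and copy number was not tested.

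**Figure D5:**
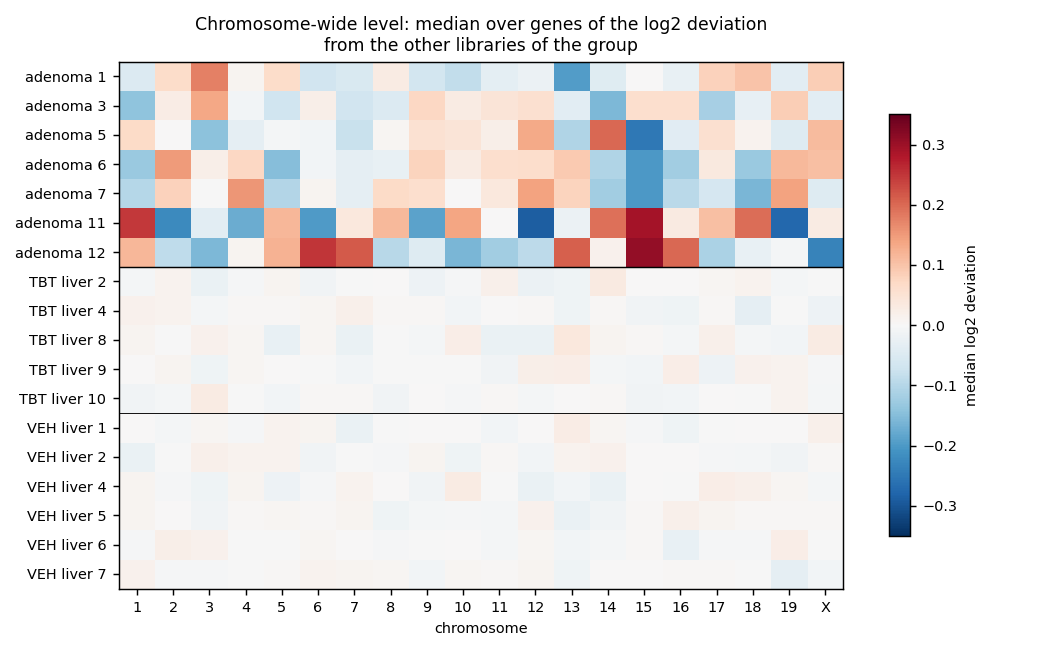
Median over the described genes of each chromosome of the log2 deviation of a library from the mean of the other libraries of its group, less the library's median over all genes, with chromosomes across and libraries down. Most of the strongest colours are in adenomas 11 and 12, on chromosomes 15, 12, 19, 6, 1 and X, beside adenoma 5 on chromosome 15 (-0.249). No liver value is beyond 0.038.

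The 6 genes with smaller spread between adenomas covered 4.39-fold or more in the livers. Pltp, the phospholipid transfer protein, was between 17.4 and 22.3 CPM in all 7 adenomas, while the livers ran from 30.4 to 141 CPM (difference in deviation -0.43, SE 0.13, limma adjusted p = 0.0218). Nr0b2, the nuclear receptor SHP that represses bile acid synthesis, was between 25.6 and 35.3 CPM in the adenomas and 11.8 to 51.9 CPM in the livers (limma adjusted p = 0.0309, lost without adenoma 7, 11 or 12 or TBT liver 4). Gstp1, a glutathione transferase with a near-identical neighbour, was between 440 and 579 CPM in the adenomas and 266 to 1550 CPM in the livers (limma adjusted p = 0.031, lost with no filter and without adenoma 3, 6 or 12 or VEH liver 6). Brca1, of DNA repair, was between 7.2 and 9.8 CPM and Resf1, a silencing factor of retroelements, between 23.5 and 35.8 CPM in the adenomas (limma adjusted p = 0.0393 and 0.0466), and livers at 1.69 to 7.89 CPM for Brca1 and 11.3 to 61.5 CPM for Resf1. These calls held in 16 of 29 and 13 of 30 alternatives, Brca1 being lost with variance-stabilised counts and without adenomas 1, 3, 5 or 11, TBT liver 8 or VEH livers 4 or 5, and Resf1 at a prior count of 0.5 and without any 1 adenoma other than adenoma 7, TBT liver 8 or VEH livers 1, 2, 5 or 6. Myc, the growth-promoting transcription factor, was between 5.91 and 9.18 CPM in the adenomas and from 1.01 to 22.7 CPM in the livers (limma adjusted p = 0.0497), a call that held in 5 of 29 alternatives and was lost with other size factors, prior counts and filter and without any 1 of the adenomas, TBT liver 9 or VEH livers 1, 2, 4, 5 or 6. Of the 9 genes described that follow ERK signalling none had larger spread in limma, the median SD ratio was 0.77, and Myc was the 1 with smaller spread. The acute phase gene Saa1, of a serum amyloid protein, likewise ran over 3.88-fold in the adenomas and 78.6-fold in the livers, without a call (limma adjusted p = 0.277).

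Among all genes described, those whose log2 CPM followed a marker most closely over the 7 tumours were listed as a description, since with 7 points and 9667 genes high values arise readily. With Glul, 80 genes had r above 0.9 and 44 below -0.9, with Mup7 111 and 70, and with A1bg 117 and 105. Bambi, a decoy receptor of the TGFβ family, followed Glul with r = 0.983: it was at 11.2 and 7.36 CPM in adenomas 6 and 7 and at 3.93 to 5.25 CPM in the other 5. Prg4, a lubricating glycoprotein, ran opposite with r = -0.954. Pomt2, a protein mannosyltransferase, followed Mup7 with r = 0.986 and larger spread (limma adjusted p = 0.0304, lost with no filter, with the livers as 1 group and without adenoma 7, TBT livers 9 or 10 or VEH livers 1, 2 or 7), and Ubald2 ran opposite with r = -0.995. Magix, on chromosome X, followed A1bg with r = 0.975, at 18.1 and 16.3 CPM in adenomas 6 and 7 and 7.99 to 10.1 CPM in the others (limma adjusted p = 0.00372), and Entpd2, an ecto-nucleotidase, ran opposite with r = -0.977, at 2.15 and 2.00 CPM in adenomas 6 and 7 and 6.10 to 9.03 CPM in the others (limma adjusted p = 0.0345, lost without adenoma 6 or 7, TBT liver 9 or VEH livers 1, 2, 4, 5 or 6).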

How the data were processed

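Frozen tissue gave the RNA, from which stranded total RNA libraries were prepared (per the labels' protocols). The authors deposited whole-number read counts per gene without normalisation. HISAT2 and featureCounts, with FastQC, Trim Galore and edgeR, are the tools named beside build mm10 (per the submitters' processing notes). No version, order or strand setting is given in the sources used here, so overlapping, antisense and near-identical genes are uncertain. In 1 TBT liver the number in the title differed from that of its column, and it is called TBT liver 9 after the column. Symbols stored as dates were restored for 27 genes.

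Counts of the 18 libraries of 10 months were filtered with filterByExpr (minimum count 10, minimum total 15) in edgeR 4.0.16 under R 4.3.3, and scaled by TMM. Log2 CPM used a prior count of 2. Deviations from the mean of each labelled group (adenoma, TBT liver, VEH liver), multiplied by the square root of n/(n-1), were compared in limma 3.58.1 with trended, robust variance, two-sided, with adjustment over all 13474 genes at a threshold of 0.05. The SD in livers was pooled over both arms. A list's level is the mean log2 deviation of its genes from the median of the 7 adenomas. Dixon's ratio, principal components, correlations and chromosome medians are descriptions. Genes were named by rule: the markers, the 15 largest SDs among those called, the 5 smallest p among those with smaller spread, up to 4 per list, 6 in each direction per marker and component, and 4 above and 2 below per tumour; of these a selection is printed. The members and lists were chosen with earlier results of these data known. The spread test was also run on simulated data with known differences in spread. There it missed most of the small ones and false calls took more than the nominal share, so single calls and counts of calls are approximate. Alternatives, among them DESeq2 1.42.0 size factors and variance-stabilised counts, are given in the closing section. Positions follow GRCm38. One named gene is not reported here.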

Additional observations from a re-analysis of the deposited data

Results flagged for a closer look

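Values of 1 adenoma lay apart from the other 6 where the gap to the nearest, divided by the range over the 7, passed Dixon's bound. Chance gives this for about 5% of groups of 7 values, and the genes below were named for it or for their spread, so the list is no count of events. In adenoma 1 the ratio was 0.749 for Ifit3, 0.667 for Isg15 and 0.619 for Slc50a1 (all high), and 0.751 for Ddx3y and 0.571 for Insc (low). In adenoma 3 it was 0.598 for Acmsd and 0.642 for Frrs1 (high), and 0.586 for Lyve1, 0.645 for Pcdh12 and 0.575 for Pltp (low). In adenoma 5 it was 0.581 for Kitl and 0.611 for Slc25a37 (high) and 0.621 for Bola1 (low). In adenoma 6 it was 0.637 for Paox, 0.597 for Fancl and 0.594 for Zpr1 (high), and 0.593 for Egr1 and 0.598 for Tsc22d4 (low).

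In adenoma 7 the ratio was 0.659 for Mat1a, 0.597 for Mug1, 0.595 for Fkbp5 and 0.616 for the amino acid carrier Slc43a1 (high), and 0.61 for Mki67, 0.738 for Pbk, 0.73 for Dlgap5 and 0.573 for Ly6d (low); the list of cell cycle genes was low with 0.654, the only one of 33 lists apart by this measure. In adenoma 11 it was 0.678 for Itgax, 0.587 for Ms4a7, 0.62 for Dpysl3 and 0.599 for Rcan2 (high), and 0.715 for Lamc3 and 0.676 for Vsig4 (low). In adenoma 12 it was 0.591 for Abhd6, 0.665 for Csrp3, 0.606 for Dgkh and 0.58 for Inhbb (high), and 0.682 for Lars2 and 0.591 for Mr1 (low). Ms4a7 and Inhbb had a median under 5 CPM and passed the bound on the mean only through their high tumours.

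Of 20 chromosomes 6 had a single tumour apart: adenoma 12 on chromosomes 7 (0.854), 11 (0.702) and X (0.771), and adenoma 11 on chromosomes 9 (0.675), 12 (0.573) and 19 (0.64). These values are medians of deviations from the tumours' median, and many are drawn to 0 by construction, as for adenoma 1 on chromosome 7. That narrows the range, so the 5% that chance gives does not apply to them and the number is a description. Chromosomes share scaling within a library, so these are not independent.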

How the results depend on the processing

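The number of genes with larger spread between adenomas (760) moved by over 1.5 times under several settings. It was 0 against VEH livers only and 0 against TBT livers only (limma; 1670 and 1399 at an unadjusted p under 0.05), and 7 with deviations from the median, where the square root factor is also dropped. It was 415 without adenomas 7 and 11, where fewer samples are tested. Leaving out 1 library each gave 498 to 1262 genes, the lowest without VEH liver 1 and the highest without adenoma 5. The cause of these shifts was not tested. It was 747 with DESeq2 size factors, 696 with no filter, 725 and 813 with prior counts of 0.5 and 5, 589 with the livers as 1 group and 1075 with variance-stabilised counts. The number with smaller spread (6) was 0 against either arm alone and with deviations from the median (93, 83 and 13 at an unadjusted p under 0.05), and ran from 3 to 8 when 1 library was left out. The labels give adenomas and livers overlapping numbers. With these numbers as a replicate block 15 genes had larger and 0 smaller spread (1205 and 94 at an unadjusted p under 0.05). Same-numbered libraries were correlated between -0.17 and 0.193, and 0 of 4 adenomas correlated best with the VEH liver of their own number. What the numbers stand for is not stated, and whether same-numbered samples share a batch was not tested. Of the chromosome values 55 instead of 28 lay beyond 0.1 when taken from the mean of the other tumours. The median SD ratio went from 1.48 to 1.31 without adenomas 7 and 11, which was beyond its spread. The remaining counts, the coefficients of variation, the share of the first component and the genes with a single tumour apart kept within their spread or 1.5 times. For the share of the first component that spread was wide, as it fell from 50.6% to 40.2% without adenoma 7. Over the single genes with a spread test, 1867 alternatives kept direction and side of the threshold, 496 lost a call, 32 gained one and 2 reversed: the spread of Mki67, as adenoma minus liver deviation, ran from -0.127 to 0.462 when 1 library was left out, the lowest without adenoma 7, and was -0.0383 without adenomas 7 and 11. The smallest adenoma library held 21920649 reads and the smallest liver library 25714194, so low genes are measured slightly less precisely in adenomas.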
